A study of Homo sapiens with 36 samples.

Results

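The response of c42b control cells to androgen was measured on Illumina HT-12 version 4 BeadChips, as the comparison of R1881 with vehicle in cells that carried a control construct. c42b (c4-2b) is a castration-resistant prostate cancer line derived from LNCaP. Castration resistance means growth after androgen has been withdrawn. R1881 (methyltrienolone) is a synthetic androgen. The comparison took 8 of the 32 samples in the series: the samples labelled c42b_NT_Androgen and c42b_pLVX_EV_Androgen on the R1881 side and those labelled c42b_NT_Control and c42b_pLVX_EV_Control on the vehicle side, with 2 samples per group and therefore 4 on each side. By the labels, NT cells carried a non-targeting control hairpin and EV cells the empty pLVX vector, the control of GABPA overexpression, whereas the methods assign the pLVX vector to knockdown. In either reading no cell of these 4 groups had GABPA, the ETS factor that the study manipulated, knocked down or overexpressed. All groups were kept in charcoal-stripped serum for 48 h and then received 1 nM R1881 or the same volume of ethanol. The length of R1881 exposure is not given in the sources used here, nor is whether a stable line was a pool or a single clone. One sample, replicate 2 of c42b_NT_Androgen, was run on 2 arrays that were averaged, so that 9 of the 36 arrays were used. LNCaP control cells with the same constructs and treatments, also 8 samples, served for comparison.

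Androgens act through a steroid receptor of the nuclear receptor family. Bound by ligand, this receptor enters the nucleus, binds androgen response elements, most of them distal to genes, and changes transcription of nearby genes. In the luminal cells of the prostate it drives genes of secretion, such as the kallikrein proteases. Many of its targets are shared with the glucocorticoid receptor, which recognises the same kind of element, and in castration-resistant disease the pathway usually remains active at low androgen.

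Values below are log2 intensities, quantile normalized over all arrays, and a difference of 1 on this scale is a 2-fold change. Each gene was represented by its brightest probe. As in any bulk RNA sample, a change in RNA per cell and a change in the share of cells that express a gene cannot be told apart. The 9 arrays had median intensities of 178.3 to 225.0. Background was set at 7.80 from olfactory receptor probes. Of 20046 genes, 48.2% had a mean above it, taken over all 32 samples of the series and not over the c42b control samples alone. By this mean all 14 measured luminal prostate markers lay above background. So did 0 of 6 basal markers, 5 of 12 fibroblast and smooth muscle markers and 3 of 12 leukocyte and endothelial markers. No gene of the last 3 lists was called by limma (0 higher and 1 lower at an unadjusted p under 0.05). The summed intensity of the 6 basal markers was 904 to 984 with R1881 and 927 to 1021 with vehicle, that of the 12 fibroblast and smooth muscle markers 2376 to 2545 against 2308 to 2420, and that of the 12 leukocyte and endothelial markers 2188 to 2326 against 2150.4 to 2359.5. Of the luminal markers 5 rose and 2 fell (35.7% and 14.3%, against 0.943% and 0.609% of all genes). The summed intensity of the luminal markers was 35979.5 to 52038 with R1881 and 28848 to 46120.0 with vehicle. NT and EV cells lay further apart than R1881 and vehicle did. The first principal component of the 8 samples held 72.1% of the variance and parted NT from EV cells. The second held 11% and parted R1881 from vehicle. The construct cannot be told apart from any other difference between NT and EV cells.

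KLK2 and KLK3, neighbouring kallikrein genes on chromosome 19, are the best known androgen targets of the prostate, and their proximal promoters are shown because they alone held the searched element among the 147 genes called higher that had a promoter window. The window is the 250 bases before the RefSeq start on the plus strand of GRCh38.p14, chr19:50854665-50854914 for KLK3 and chr19:50873189-50873438 for KLK2. Capitals mark a 15-base match to the androgen response element, which began 170 bases before the start in KLK3 and 176 bases before it in KLK2.

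KLK3: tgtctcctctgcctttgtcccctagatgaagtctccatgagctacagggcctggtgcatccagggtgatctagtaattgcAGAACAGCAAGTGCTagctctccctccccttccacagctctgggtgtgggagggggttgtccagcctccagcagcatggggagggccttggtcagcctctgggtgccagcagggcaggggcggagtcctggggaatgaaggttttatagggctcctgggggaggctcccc

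KLK2: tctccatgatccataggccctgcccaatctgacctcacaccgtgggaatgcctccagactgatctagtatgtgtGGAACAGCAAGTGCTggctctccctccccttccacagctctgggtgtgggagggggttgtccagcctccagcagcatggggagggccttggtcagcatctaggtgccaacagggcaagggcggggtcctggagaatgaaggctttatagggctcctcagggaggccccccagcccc

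Counted from 1 at the left end of the capitals, the KLK3 element differed from that of KLK2 by A1G, at the base that the looser form leaves out. Searched on both strands, the full palindrome, AGAACA and TGTTCT with NNN between them, was in 0 of 15034 promoter windows of this length. A looser form, GAACA and GTNCT with NNNN between them, was written to take in the known KLK3 element. It was in 27 windows (0.18%), among them 2 of the 147 of genes called higher and 0 of the 93 of genes called lower. The half-site AGAACA, which overlaps the palindrome, was in 9.3% of all windows, 4.76% of those called higher and 6.45% of those called lower. The ETS letters CCGGAAG were in 11.8%, 15.6% and 8.6%. Among the 7924 windows of genes above background, the half-site was in 7.42% and the ETS letters in 16.5%. A match is a description of the letters, and KLK2 and KLK3 are copies of one another, so that their elements are not separate instances.

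R1881 raised 189 genes and lowered 122 (limma, adjusted p under 0.05), which was 0.943% and 0.609% of the 20046 tested. The rise was the larger arm in size as well as number, with 31 genes raised and 3 lowered by at least 2-fold. The median difference was 0.52 among the raised genes and -0.45 among the lowered, against -0.0044 over all genes, with a median SE of 0.10. Of the called genes, 21 raised and 13 lowered ones had a mean over all 32 samples below background. The 168 raised and 109 lowered ones above it were 1.74% and 1.13% of the 9668 genes there. Within each construct the R1881 samples did not overlap the vehicle samples in 182 of the 189 raised and 115 of the 122 lowered genes, a pattern that 4.44% and 4.76% of all genes showed in these directions. The genes were called from these same samples, so that most of this separation follows from the call.

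**Figure D1:**
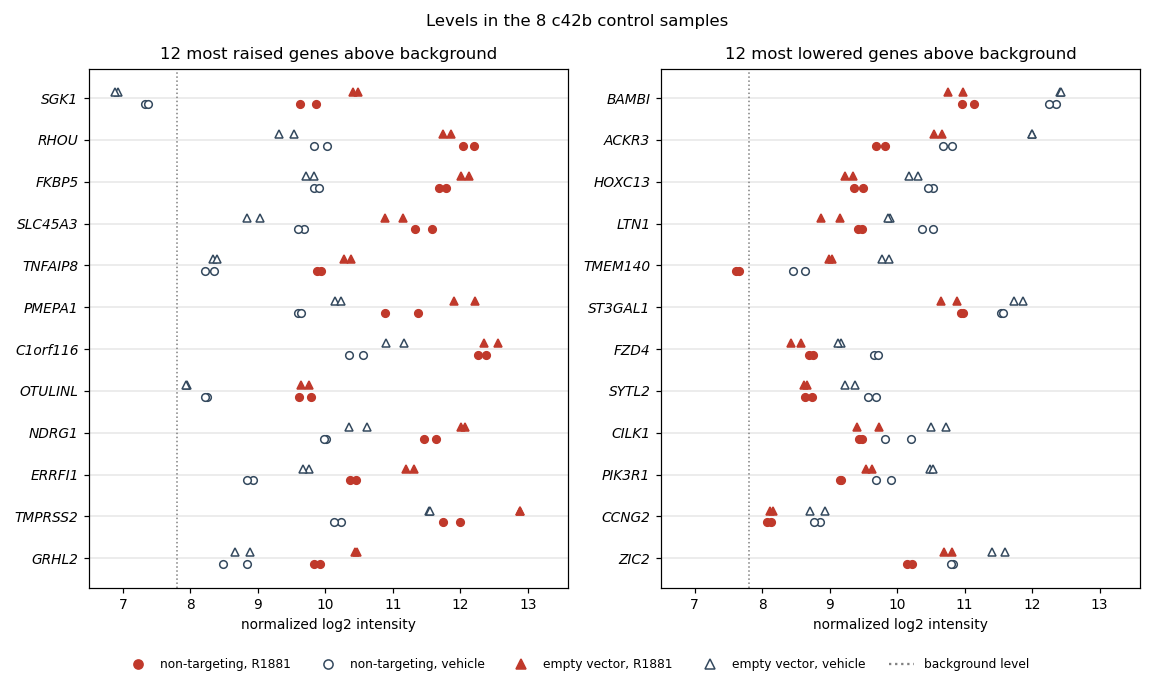
Normalized log2 intensity (horizontal axis) of the 12 most raised (left) and 12 most lowered (right) genes above background in each of the 8 c42b control samples, with circles for non-targeting and triangles for empty-vector cells, filled red for R1881 and open for vehicle, and the dotted line at the background of 7.80. Genes were chosen so that filled and open symbols of one construct do not overlap, and SGK1 shows the widest gap, 2.97 on average.

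The most raised gene was SGK1. SGK1, a serum- and glucocorticoid-regulated kinase, lay at 9.62 and 9.87 in NT and 10.49 and 10.40 in EV cells with R1881, and at 7.32 and 7.37 in NT and 6.93 and 6.88 in EV cells with vehicle. All 4 vehicle samples were thus below background and all 4 R1881 samples well above it, a difference of 2.97 (SE 0.08, 7.84-fold, adjusted p = 1.05e-20). Of its other probes, 2 showed 2.12 and 1.98, and the dimmest showed 0.04. FKBP5, a co-chaperone that binds HSP90 in steroid receptor complexes, was at 11.79, 11.69, 12.01 and 12.12 with R1881 and at 9.84, 9.90, 9.82 and 9.71 with vehicle (NT replicates 1 and 2, then EV replicates 1 and 2, the order used from here on). The vehicle samples of both constructs lay close together and well below the R1881 samples, with a difference of 2.08 (SE 0.08, 4.24-fold, adjusted p = 5.67e-17). ERRFI1, which inhibits the EGF receptor, rose by 1.54 (SE 0.09), with EV cells above NT cells in both treatments. Of the 24 measured members of the list shared with glucocorticoids, 9 rose (37.5%, against 0.943% of all genes) and 1 fell (4.17%, against 0.609%), with a median of 0.16. Besides these, SLC2A3, a glucose transporter, rose by 1.5 from a vehicle level below background, TIPARP, a mono-ADP-ribosyltransferase, by 1.37, NFKBIA, the inhibitor of NF-kappaB, by 1.17, ZBTB16, a zinc finger repressor, by 1.12, CEBPD, a bZIP transcription factor, by 0.86 and CRISPLD2 by 0.44. The exception was TSC22D3 (GILZ), a classical glucocorticoid target, which was lower by 0.52 (SE 0.11, adjusted p = 0.00613), at 10.44, 10.47, 12.71 and 12.30 with R1881 and 11.46, 11.04, 12.86 and 12.65 with vehicle. Its groups overlapped in EV cells. The TSC22D3 call was lost without NT vehicle replicate 1, EV R1881 replicate 2 or EV vehicle replicate 1 (differences of -0.47 to -0.42, adjusted p 0.0502 to 0.0910). The CRISPLD2 call was lost without NT R1881 replicate 1, NT vehicle replicate 2, EV R1881 replicate 1 or EV vehicle replicate 2 (0.37 to 0.42, adjusted p 0.0696 to 0.127).

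A large share of the androgen-induced genes listed here rose, and the rest did not pass the test or fell. Of 53 measured members, 23 rose (43.4%, against 0.943% of all genes), 2 fell and 28 were not called, and the median was 0.30. This list and the other gene lists were written with earlier results of these data known, so that such shares are description only. RHOU, an atypical small GTPase, had 12.21, 12.04, 11.75 and 11.86 with R1881 and 9.83, 10.02, 9.32 and 9.53 with vehicle, a rise of 2.29 (SE 0.09, 4.88-fold, adjusted p = 1.55e-17). SLC45A3, a prostate-restricted transporter known as prostein, had 11.58, 11.33, 11.15 and 10.88 against 9.68, 9.59, 8.83 and 9.02, a rise of 1.95 (SE 0.09). NT cells were the higher ones in both genes under both treatments. C1orf116, known as specifically androgen-regulated gene, rose by 1.64 (SE 0.08), with a smaller difference at each of its dimmer probes (0.93 and 0.50). NDRG1, a stress-responsive protein, rose by 1.55, by the same amount in both constructs. ALDH1A3, which makes retinoic acid, rose by 1.36, LRIG1, which restrains receptor tyrosine kinases, by 1.35 and ABCC4, an export pump, by 0.66. MAF, a bZIP transcription factor, rose by 1.10, with -0.01 on its second probe. ELL2 and its partner EAF2, which act in transcription elongation, rose by 1.06 and 1.03. GREB1 rose by 0.85 on its brightest probe, but its 3 other probes showed -0.11 to -0.09 and no call. TUBA3E rose by 1.13 and TUBA3C by 0.77; these tubulin genes are near-identical, and their probes may read the same transcripts. Members that did not pass included STEAP4, a metalloreductase (-0.08), KLF5 (0.05), CAMKK2 (-0.06) and TPD52 (0.17), while CDK8, a kinase of the Mediator complex (-0.40), and TRIB1, a pseudokinase (-0.60), fell. The CDK8 call was lost without NT R1881 replicate 1, NT vehicle replicate 2, EV R1881 replicate 2 or either EV vehicle replicate (-0.41 to -0.35, adjusted p 0.0508 to 0.133).

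Among genes outside these lists, TNFAIP8, an inhibitor of apoptosis, rose by 1.79 (SE 0.09, 3.46-fold), OTULINL by 1.61, IRS2, an adaptor of the insulin receptor, by 1.22 and TNFRSF10B, a receptor of the death ligand TRAIL, by 0.89. NPPC, which encodes C-type natriuretic peptide, had a mean over all samples below background and rose by 1.64 (SE 0.10): it was at 8.59, 8.55, 8.77 and 8.74 with R1881 and at 6.88, 6.74, 7.34 and 7.13 with vehicle. All 4 of its vehicle samples lay below background and all 4 R1881 samples above it.

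The secretory programme responded in part. TMPRSS2, a membrane serine protease whose promoter is often fused to ETS genes in prostate cancer, had 11.99, 11.74, 12.88 and 12.89 with R1881 and 10.24, 10.12, 11.54 and 11.56 with vehicle, a rise of 1.51 (SE 0.09, 2.85-fold, adjusted p = 1.33e-12). EV cells with vehicle almost reached the level of NT cells with R1881. KLK2 had 10.07, 9.98, 9.64 and 9.93 against 8.51, 8.65, 8.67 and 8.79, a rise of 1.25 (SE 0.09, 2.38-fold). KLK3, which encodes prostate-specific antigen, had 10.31, 10.10, 10.75 and 10.79 against 9.43, 9.22, 9.82 and 9.88, a rise of 0.90 (SE 0.09, 1.86-fold, adjusted p = 9.1e-08). The groups of KLK2 and KLK3 did not overlap, and their sequences are close enough that part of one signal could come from the other. KLK4, another kallikrein, was at 13.96 to 14.18 with R1881 and 13.66 to 13.96 with vehicle and did not pass (0.27, adjusted p = 0.0612). ACP3, prostatic acid phosphatase, went the other way, with 9.13, 9.16, 9.61 and 9.62 against 9.83, 9.39, 10.11 and 10.10 (-0.48, SE 0.10, adjusted p = 0.00486), a call that was lost without NT vehicle replicate 1 (-0.37, adjusted p = 0.0831). In all, 4 of 19 secretory genes rose (TMPRSS2, KLK2, KLK3 and KLK15) and 1 fell, with a median of 0.04. These were 21.1% and 5.26%, against 0.943% and 0.609% of all genes. The second probe of KLK15, with a mean of 6.64, showed -0.08. KLK15 (0.45, adjusted p = 0.0365) was no longer called without NT R1881 replicate 1, NT vehicle replicate 1 or 2, EV R1881 replicate 1 or 2, or EV vehicle replicate 1 (adjusted p 0.0812 to 0.232).

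**Figure D2:**
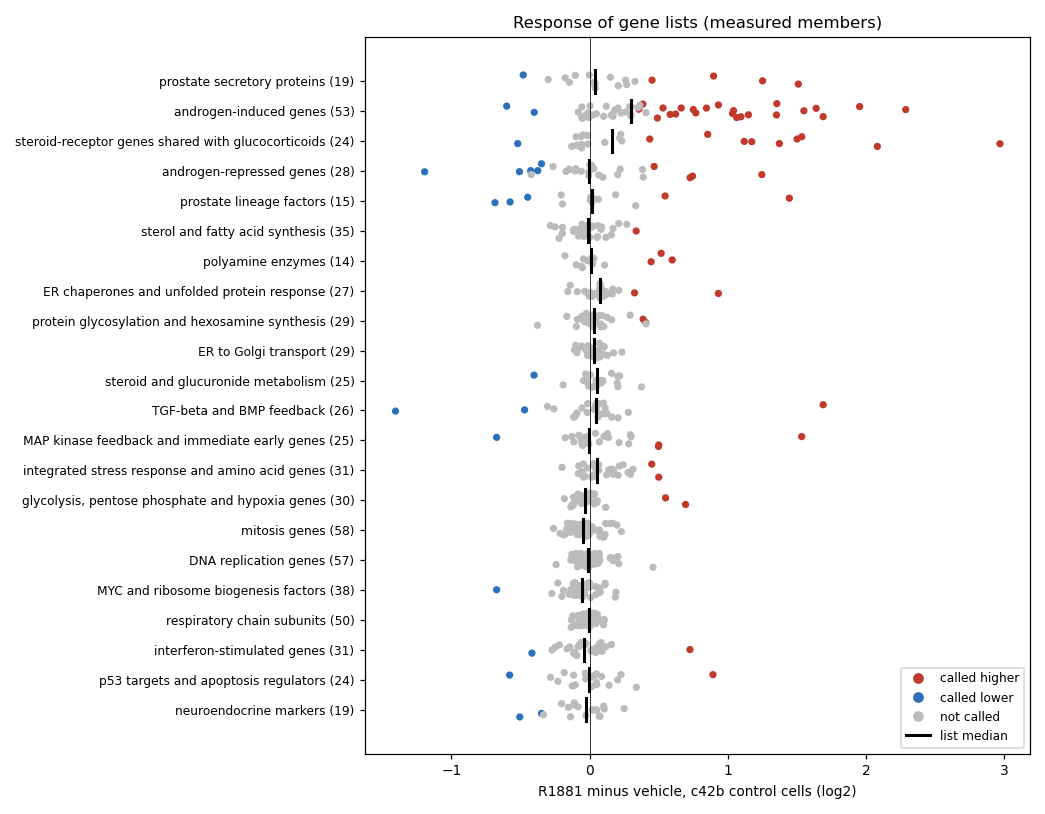
Difference between R1881 and vehicle (log2, horizontal axis) for each measured member of 22 gene lists (vertical axis, number of measured genes in parentheses), red where called higher, blue where called lower and grey where not called, with the black bar at the list median. Androgen-induced genes have the highest median, 0.30, and mitosis, DNA replication, respiratory chain and transport genes have no called member.

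Lineage transcription factors moved in both directions. GRHL2, which maintains epithelial identity, had 9.92, 9.83, 10.46 and 10.43 with R1881 and 8.48, 8.83, 8.67 and 8.88 with vehicle, a rise of 1.45 (SE 0.09, 2.72-fold). All 4 of its R1881 samples were above all 4 vehicle samples, which held for 2.07% of all genes, and the opposite order for 1.67%. HOXB13, a homeobox factor of the prostate lineage, had 9.34, 9.35, 9.59 and 9.24 against 10.03, 10.05, 10.06 and 10.11, a difference of -0.68 (SE 0.11, adjusted p = 1.87e-04). GATA2, a pioneer factor, fell by 0.58 and ELF3, an epithelial ETS factor, by 0.45. SPDEF, the prostate-derived ETS factor, rose by 0.55 (adjusted p = 0.00181), with 0.22 in NT and 0.87 in EV cells, and was not called in a fit to the 8 samples alone (adjusted p = 0.0964). FOXA1, a further pioneer factor, was not called (0.01, SE 0.07). The ETS factor GABPA was at 8.05 with R1881 and 8.06 with vehicle, and its partner GABPB1 was higher by 0.32 without passing (adjusted p = 0.0739). SNAI2 (SLUG), a zinc finger repressor, rose by 1.15 on its brightest probe and by 2.67 on its dimmer one.

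The most lowered gene was BAMBI, at 2.65-fold, and 3 genes were lowered by at least 2-fold. BAMBI, a decoy receptor that blocks TGF-beta signalling, had 10.95, 11.14, 10.75 and 10.98 with R1881 and 12.35, 12.24, 12.42 and 12.43 with vehicle. All 4 R1881 samples lay below every vehicle sample, and the mean difference was -1.40 (SE 0.09, 2.65-fold lower, adjusted p = 1.44e-12). PMEPA1, a membrane protein that also restrains TGF-beta signalling, moved the other way: it had 11.37, 10.88, 11.90 and 12.22 against 9.60, 9.64, 10.14 and 10.24, a rise of 1.69 (SE 0.10, 3.23-fold). Its other probes were called as well (1.34 and 0.89), except the dimmest, which showed no difference (0.01). These and INHBB, an inhibin subunit (-0.47), were the called genes among 26 of TGF-beta and BMP signalling, whose median was 0.05. The share raised was 3.85% and the share lowered 7.69%, against 0.943% and 0.609% of all genes. INHBB was not called in a fit to the 8 samples alone (adjusted p = 0.128). ACKR3 (CXCR7), a scavenger receptor for CXCL12, had 9.68, 9.82, 10.55 and 10.67 against 10.81, 10.69, 12 and 12, a difference of -1.19 (SE 0.09). The R1881 samples of EV cells came close to the vehicle samples of NT cells without reaching them. HOXC13, a homeobox factor, fell by 1.01 (SE 0.09), LTN1, the ubiquitin ligase of ribosome quality control, by 0.93 and TMEM140 by 0.86. The next were ST3GAL1, a sialyltransferase (-0.81), FZD4, a Wnt receptor (-0.81), SYTL2, an effector of RAB27 (-0.80), CILK1, a kinase of the cilium (-0.80), PIK3R1, the regulatory subunit of PI3 kinase (-0.78), CCNG2, cyclin G2 (-0.70), and ZIC2, a zinc finger factor (-0.69). For CCNG2, CILK1, PIK3R1 and SYTL2 only the brightest probe was called. MYC had 11.27, 11.18, 10.67 and 10.90 against 11.77, 11.72, 11.62 and 11.61, a difference of -0.67 (SE 0.08, adjusted p = 1.46e-06), and its second probe was lower as well (-0.45). The other 37 genes of MYC and ribosome biogenesis were not called.

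Genes listed here as repressed by androgen were called in both directions. Of 28 measured, 5 fell (17.9%, against 0.609% of all genes) and 4 rose (14.3%, against 0.943%), and the median was -0.01. Those that fell were ACKR3, PRKD1, protein kinase D1 (-0.51), CAMK2N1, an inhibitor of CaM kinase II (-0.43), OPRK1, the kappa opioid receptor (-0.38), and DDC, DOPA decarboxylase (-0.35). Those that rose were SOCS2, a suppressor of cytokine signalling (1.25, SE 0.09), TMEFF2 (0.75), THBS1, thrombospondin (0.73), and ADAMTS1, a matrix protease (0.47). SOCS2 had 10.31, 10.18, 10.27 and 10.49 with R1881 and 9.0, 9.11, 9.17 and 8.99 with vehicle, so that its groups did not overlap in either construct. DDC differed by -0.05 in NT cells, where its groups overlapped, and by -0.64 in EV cells, and it was not called with median centring (-0.30, adjusted p = 0.207). OPRK1 was not called without any 1 of 6 libraries (-0.39 to -0.29, adjusted p 0.0744 to 0.249), which were NT R1881 replicate 2, both NT vehicle replicates, EV R1881 replicate 1 and both EV vehicle replicates. DDC was not called without any 1 of 4 (-0.34 to -0.30, adjusted p 0.0538 to 0.102), which were NT R1881 replicate 1, NT vehicle replicate 1, EV R1881 replicate 1 and EV vehicle replicate 2. ADAMTS1 was not called without NT vehicle replicate 1 (0.40, adjusted p = 0.0506). In LNCaP control cells 3 of the 28 were called higher and 7 lower. SOCS2 (1.16) and TMEFF2 (0.40) were among the higher ones there, so that their rise was not particular to c42b.

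In limma, 0 of 58 mitosis genes and 0 of 57 DNA replication genes passed, with medians of -0.05 and -0.01, and neither did any of 50 respiratory chain or 29 ER to Golgi transport genes. At an unadjusted p under 0.05 2 mitosis genes were higher and 3 lower, 4 DNA replication genes were higher and 1 lower, and 0 respiratory chain and ER to Golgi transport genes passed. Outside these lists, CENPN, a centromere protein, rose by 1.04 (SE 0.08) and NCAPD3, a condensin subunit, by 0.75 (SE 0.09). Polyamine synthesis had 3 of 14 members raised (21.4%, against 0.943% of all genes). These were its rate-limiting enzyme ODC1 (0.60, SE 0.08), spermine synthase SMS (0.52) and the catabolic enzyme SAT1 (0.45). ODC1 was at 13.32, 13.10, 13.36 and 13.18 with R1881 and between 12.61 and 12.68 in all vehicle samples. Among 35 genes of sterol and fatty acid synthesis 1 was called, ACACA, acetyl-CoA carboxylase (0.34, adjusted p = 0.0316), and it was lost without any of 6 libraries (NT R1881 replicate 1, both NT vehicle replicates, both EV R1881 replicates and EV vehicle replicate 1, adjusted p 0.0825 to 0.197). FASN (0.12) and SCD (-0.11) were not called. DNAJB9, a chaperone of the endoplasmic reticulum, rose by 0.93 (SE 0.09). It was among 2 genes raised of 27 ER chaperone genes (7.41%, against 0.943% of all genes). Among 25 MAP kinase feedback and immediate early genes, ERRFI1, JUN (0.50) and ATF3 (0.50) rose (12%, against 0.943% of all genes). MYC fell (4%, against 0.609%), and FOS (0.13) and EGR1 (-0.03) were not called. FOS lay below background in all these samples and EGR1 close to it, so that a fall could hardly be seen. ATF3, a stress-induced factor, had 9.30, 9.29, 11.49 and 11.35 with R1881 and 9.31, 9.0, 10.58 and 10.55 with vehicle, so that the groups overlapped in NT cells. It was not called in a fit to the 8 samples alone (adjusted p = 0.111).

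Of the remaining lists several had 1 or 2 called members. Among 30 glycolysis and hypoxia genes 2 were raised (6.67%, against 0.943% of all genes): ANKRD37, a hypoxia-induced gene, rose by 0.69 (SE 0.10) and VEGFA, the endothelial growth factor, by 0.55. The VEGFA call was lost without NT R1881 replicate 1, NT vehicle replicate 1, EV R1881 replicate 2 or EV vehicle replicate 1 (0.39 to 0.49, adjusted p 0.0696 to 0.119). Among 31 interferon-stimulated genes 1 was raised and 1 lowered (3.23% each): HERC5, the ligase that attaches ISG15, rose by 0.73 (SE 0.10) and IRF1, an interferon regulatory factor, was at -0.42. IRF1 had 7.20, 7.44, 7.44 and 7.42 with R1881 and 7.66, 7.70, 7.87 and 7.93 with vehicle. All of these lie below or close to the background of 7.80, which limits this difference. The IRF1 call was lost without NT R1881 replicate 1 or either NT vehicle replicate, and without either EV R1881 replicate or EV vehicle replicate 2 (-0.43 to -0.36, adjusted p 0.0504 to 0.146). Among 31 genes of the integrated stress response, ATF3 and VLDLR, a lipoprotein receptor (0.45), rose (6.45%). Among 19 neuroendocrine markers 2 were lowered, DDC and SYT4 (against 0.609% of all genes). SYT4 was not called without NT vehicle replicate 1 (-0.41, adjusted p = 0.0603), and DDC not without any 1 of the 4 libraries already named (-0.34 to -0.30, adjusted p 0.0538 to 0.102). Among 24 p53 targets and apoptosis regulators TNFRSF10B rose and TP53INP1, a stress-induced nuclear protein, fell (-0.58). Each was 4.17% of the list, against 0.943% and 0.609% of all genes.

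The response was then compared between the constructs, which share no samples. Taken alone, NT cells had 93 genes raised (0.464%) and 36 lowered (0.18%), and EV cells 121 (0.604%) and 76 (0.379%), with 2 samples on each side. These counts moved with single libraries. The NT counts were 60 raised and 12 lowered without NT R1881 replicate 1, 60 and 16 without NT vehicle replicate 1, and 64 and 23 without NT vehicle replicate 2. The EV counts were 80 and 49 without EV R1881 replicate 1, 87 and 45 without EV R1881 replicate 2, 93 and 42 without EV vehicle replicate 1, and 82 and 41 without EV vehicle replicate 2. All 189 raised and all 122 lowered genes had the same sign in both. They were called on the average over both constructs, which largely fixes a like sign in each. The difference between the constructs was called for 1 gene (0.00499%), against 1132 at an unadjusted p under 0.05. That gene was SGK1, with a rise of 2.40 in NT and 3.54 in EV cells (difference 1.14, SE 0.16, adjusted p = 0.00433). All vehicle levels of SGK1 lay below background in both constructs, which limits both rises and their difference. The SGK1 difference was lost with only the 8 samples in the fit (adjusted p = 0.492) and without NT R1881 replicate 1 (1.02, 0.0882), NT vehicle replicate 2 (1.12, 0.0652) or EV R1881 replicate 1 (1.10, 0.0810). The next gene, LMO4, a LIM-domain adaptor, moved by -0.87 in NT and 0.34 in EV cells and did not pass (adjusted p = 0.077).

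**Figure D3:**
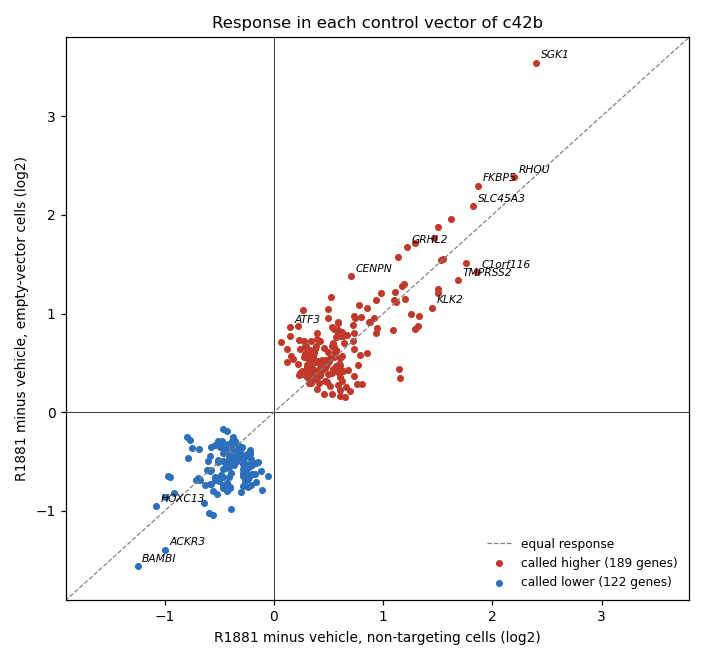
R1881 minus vehicle (log2) in non-targeting cells (horizontal axis) against empty-vector cells (vertical axis) for the 189 genes called higher (red) and 122 called lower (blue), with the dashed line at equal response. All red points lie above 0 and all blue points below 0 on both axes, and SGK1 is the farthest out at 2.40 and 3.54. The genes were called on the average of both axes, which largely fixes these signs.

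The same genes were read in the other c42b cells of the series, which did not enter the androgen contrast. Those cells did enter the shared estimate of spread and the joint adjustment, so that this reading was not fully independent of the calls. In cells with the GABPA overexpression vector 184 of the 189 raised genes were above 0 (median 0.53) and 117 of the 122 lowered genes below 0 (median -0.34). In cells with the GABPA hairpin 188 of the 189 were above 0 (median 0.46), and all but 6 of the lowered genes were below 0 (median -0.31). Of all genes, 49.3% and 48.5% were above 0 in these cells. SGK1 rose by 3.68 and 2.49 in them, RHOU by 2.08 and 2.05, and BAMBI was lower by -1.66 and -0.91. SYT4, a synaptotagmin, and CAMK2N1, both called lower in control cells, were at 0.33 and 0.08 in cells with the overexpression vector. The SYT4 call was lost without NT vehicle replicate 1 (-0.41, adjusted p = 0.0603).

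LNCaP control cells, the androgen-sensitive parent line, had more genes called, 331 raised (1.65%) and 265 lowered (1.32%). Of these, 139 raised genes were shared, which is 73.5% of the c42b and 42% of the LNCaP genes, and 72 lowered ones, 59.0% and 27.2%, while 0 genes were called in opposite directions. The difference between the 2 responses was called for 67 genes (0.334%), against 1428 at an unadjusted p under 0.05. More positive in c42b were 34 (0.17%) and more negative 33 (0.165%). In 32 of them the LNCaP response was above 0 and that of c42b less positive or negative, and in 32 the LNCaP response was below 0 and that of c42b less negative or positive. These groups include genes with the larger response in c42b, such as LFNG (0.06 in LNCaP, -0.59 in c42b) and NBL1 (-0.12 and 0.95). The remaining 3 were larger in c42b in the same direction. Of the 67 genes, 41 were called in LNCaP only, 18 in both lines, 7 in c42b only and 1 in neither, so that not all of them responded less in c42b.

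**Figure D4:**
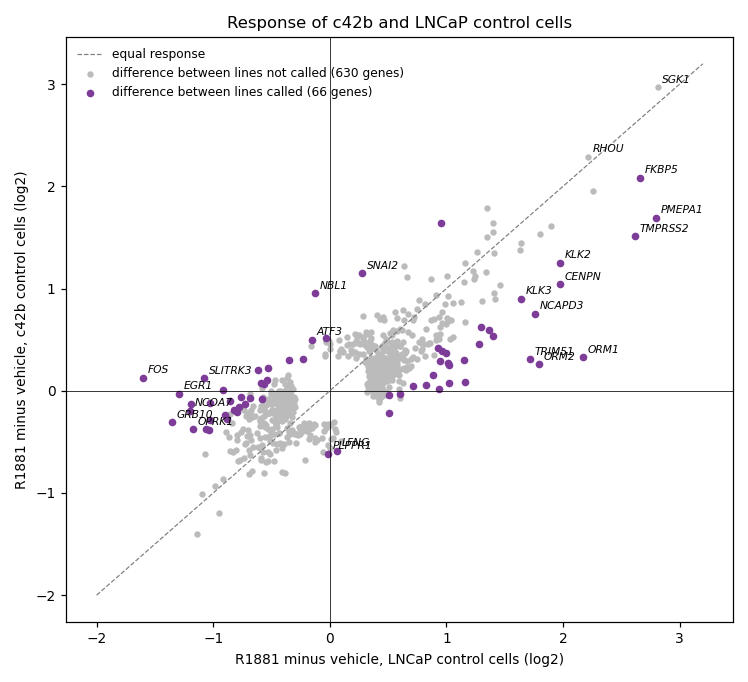
R1881 minus vehicle (log2) in LNCaP control cells (horizontal axis) against c42b control cells (vertical axis) for the 696 genes called in either line, purple where the difference between the lines was called (66 genes) and grey where it was not (630 genes), with the dashed line at equal response. PMEPA1 and TMPRSS2 lie below the line at 2.80 and 2.62 in LNCaP against 1.69 and 1.51 in c42b. SGK1 and RHOU lie near it, but the SGK1 point averages opposite gaps (c42b minus LNCaP -0.81 for NT, 1.12 for EV).

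Some of the most raised genes differed between the lines and others were not called. SLC45A3 (-0.30, adjusted p = 0.659), C1orf116 (0.24, adjusted p = 0.743) and RHOU (0.07, adjusted p = 0.964) were not. Nor was SGK1 (0.16, adjusted p = 0.861), but its small mean difference hid gaps of opposite sign, -0.81 for NT and 1.12 for EV. In LNCaP SGK1 rose by 3.21 (NT) and 2.42 (EV), the reverse order of c42b (2.40 and 3.54). This reversal was not tested. TMPRSS2 rose by 2.62 in LNCaP and 1.51 in c42b (difference -1.11, SE 0.13, adjusted p = 1.12e-05), and this gap was present in NT (-1.12) and in EV cells (-1.10). PMEPA1 differed by -1.11 (SE 0.15), CENPN by -0.93 and NCAPD3 by -1.01. KLK3 rose by 1.64 in LNCaP and 0.90 in c42b (difference -0.74, SE 0.13, adjusted p = 0.00338). This gap was -0.52 in NT and -0.96 in EV cells. With R1881 KLK3 was at 10.46, 10.66, 10.44 and 10.33 in LNCaP, much as in c42b (mean 10.47 against 10.49), whereas with vehicle LNCaP lay at 9.20, 9.12, 8.61 and 8.41, below all c42b vehicle samples (9.22 at the lowest). KLK2 differed by -0.72 (SE 0.13, adjusted p = 0.00415), but by -0.17 in NT and -1.28 in EV cells. KLK4 rose by 1.01 in LNCaP and differed by -0.74, and PLPP1, a lipid phosphatase, by -0.87. Within NT cells alone the line difference was called for TMPRSS2 and CENPN but not for PMEPA1, NCAPD3, KLK2, KLK3, KLK4 or PLPP1. Within EV cells alone it was called for all of these. FKBP5 differed by -0.58 (adjusted p = 0.0185), a call lost without NT R1881 replicate 2, NT vehicle replicate 2, EV R1881 replicate 1 or EV vehicle replicate 1 (-0.57 to -0.55, adjusted p 0.0626 to 0.0715).

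ORM1 and ORM2, which encode the plasma protein orosomucoid and are near-identical copies, rose in LNCaP and were not called in c42b. ORM1 was at 8.92, 9.06, 9.82 and 9.47 with R1881 and 6.98, 7.25, 7.05 and 7.29 with vehicle in LNCaP, and its c42b samples ranged only from 7.22 to 7.90. The difference between the lines was -1.84 (SE 0.17, adjusted p = 9.97e-08) for ORM1 and -1.54 (SE 0.16) for ORM2. TRIM51, which belongs to a cluster of closely similar TRIM genes, differed by -1.41.

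NBL1 and SNAI2 rose in c42b and were not called in LNCaP. NBL1, a secreted BMP antagonist, had 9.68, 9.67, 9.92 and 9.73 with R1881 and 8.84, 8.79, 8.77 and 8.77 with vehicle in c42b, while its LNCaP samples lay at about the background, between 7.66 and 8.0. The responses were 0.95 and -0.12 (difference 1.08, SE 0.14, adjusted p = 2.57e-05), and its second probe rose by 0.55 in c42b. SNAI2 had 8.91, 9.21, 8.75 and 8.76 against 7.75, 7.71, 7.70 and 7.87 in c42b and 8.32, 8.06, 8.10 and 8.02 against 7.93, 7.81, 7.88 and 7.79 in LNCaP. Its responses were 1.15 and 0.28 (difference 0.87, SE 0.13, adjusted p = 2.91e-04).

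GRB10, NCOA7 and SLITRK3 fell in LNCaP and were not called in c42b, where SLITRK3 lay below background (7.64 with R1881 and 7.52 with vehicle), so that a fall of it could not be seen there. GRB10, an adaptor that inhibits insulin receptor signalling, fell by 1.35 in LNCaP and was at -0.31 in c42b (difference 1.04, SE 0.12, adjusted p = 7.41e-06). For the immediate early genes FOS and EGR1 the difference rested on 2 LNCaP samples. FOS was at 9.60 and 10.02 in EV LNCaP cells with vehicle and between 6.62 and 6.94 in the other 6 LNCaP samples, and EGR1 at 10.20 and 10.92 against 7.62 to 8.11. The c42b samples of FOS and EGR1 showed no such level, and within NT cells the lines differed by 0.04 and 0.09. In c42b FOS lay below background (6.59 to 7.21) and EGR1 close to it (means of 7.83 with R1881 and 7.85 with vehicle). A fall of either could therefore hardly be seen there. Within NT cells 17 of the 67 differences were called and within EV cells 38, and 64 of 67 had the same sign in both.

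**Figure D5:**
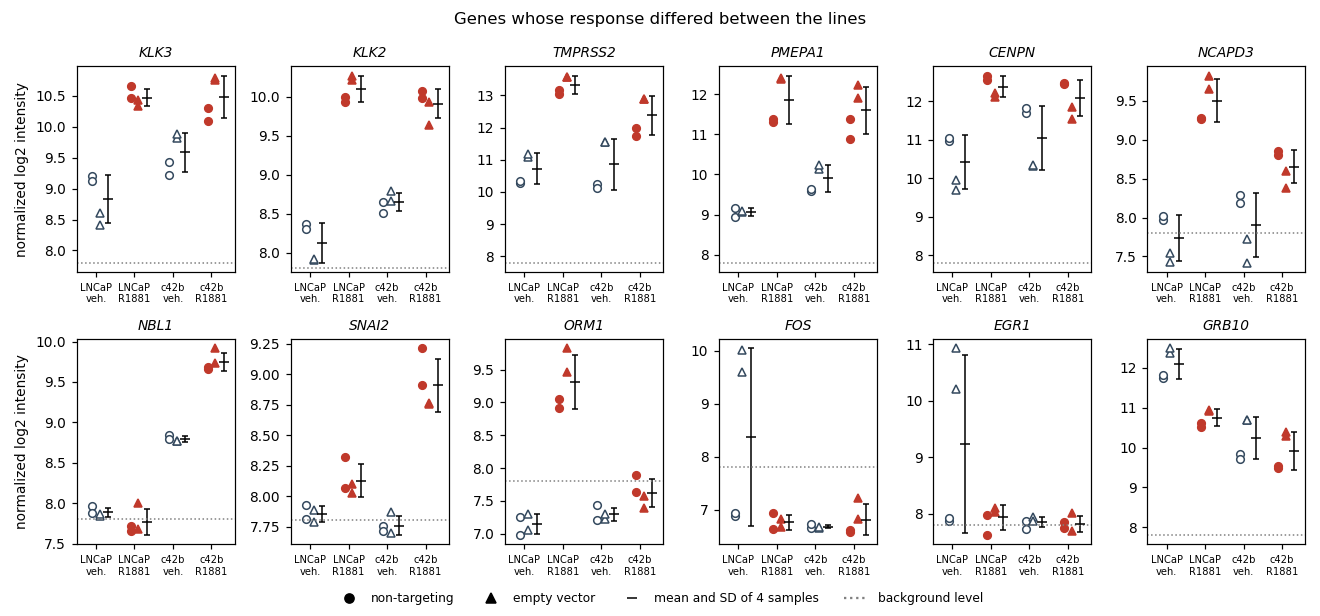
Normalized log2 intensity (vertical axis) of 12 genes whose response differed between the lines, in LNCaP and c42b control cells with vehicle (open) or R1881 (filled), circles for non-targeting and triangles for empty-vector cells, with the mean and SD of 4 samples in black and the background of 7.80 dotted. KLK3 and KLK2 reach like levels with R1881 in both lines from a lower vehicle level in LNCaP, and FOS and EGR1 are high only in the 2 empty-vector LNCaP samples with vehicle.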

How the data were processed

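RNA was hybridized to Illumina HT-12 version 4 BeadChips. Per the study's methods, the authors removed spatial artefacts with BASH and HULK, and deposited intensities together with a log2, quantile-normalized table. Here the deposited intensities were log2 transformed and quantile normalized over 36 arrays, and repeat arrays were averaged to 32 samples. The result differed from the authors' log2 table by a median of 0.000159 and at most 0.152. Of 47231 probes, 30113 named 1 gene, 8 named several and 17110 had no gene name in the annotation used, and symbols were updated through Entrez identifiers. Where several probes named a gene, the brightest on average was taken. Background was the 95th percentile of 457 olfactory receptor probes. Counts of genes above or below it used the mean of each gene over all 32 samples.

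limma 3.58.1 in R 4.3.3 was fitted to all 32 samples with 1 mean per group. The androgen contrast averaged R1881 minus vehicle over both constructs. Benjamini-Hochberg adjustment ran jointly over 6 comparisons (overexpression, knockdown and androgen response of control cells in each line), over each interaction alone and jointly over the 2 contrasts within constructs. The threshold was 0.05. Arrays give no count depth, so that precision is limited by their number, with 2 samples per group. The methods name biological triplicates, whereas the labels give replicates 1 and 2 and repeat arrays, and the labels were followed, so that p-values measure the spread between these samples. The fit was tested on simulated data. Alternatives were the background correction, the normalization, the source table, the filter, the adjustment, the threshold, repeat arrays, the samples fitted, the probe rule, a replicate block and leaving out each c42b control sample. The members and gene lists were chosen with earlier results of these data known. Genes were named by rule: the 12 highest and 12 lowest called genes above background without overlap within either construct, up to 4 called members of each list, the 5 smallest p-values of the construct difference and the 8 smallest of the line difference, and GABPA and GABPB1. Further genes were chosen after their values were seen: NBL1, SNAI2, LFNG, PLPPR1, EGR1, CENPN, NCAPD3, NPPC, KLK4, DUSP1, PLPP1, CDK8, TRIB1, IRS2 and other called or uncalled list members. Promoters are RefSeq sequences of GRCh38.p14, matched by symbol for 15034 genes. Some genes are not reported here.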

Additional observations from a re-analysis of the deposited data

Results flagged for a closer look

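The difference of the R1881 response between non-targeting and empty-vector c42b cells was called for SGK1 (1.14), at 2.40 in the first and 3.54 in the second of these. It was not called in 6 of the alternatives tried: in fits with the replicate block, the crossed block or the 8 samples alone, and without 3 of the single libraries.

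Differences of the response between c42b and LNCaP control cells, each tested as an interaction in limma, were called for 25 named genes (c42b minus LNCaP, log2). The response was less positive or more negative in c42b for ORM1 (-1.84), ORM2 (-1.54), TRIM51 (-1.41), PMEPA1 (-1.11), TMPRSS2 (-1.11), NCAPD3 (-1.01), CENPN (-0.93), PLPP1 (-0.87), KLK4 (-0.74), KLK3 (-0.74), KLK2 (-0.72), LFNG (-0.65), PLPPR1 (-0.60) and FKBP5 (-0.58). It was more positive or less negative in c42b for FOS (1.73), EGR1 (1.27), SLITRK3 (1.20), NBL1 (1.08), GRB10 (1.04), NCOA7 (1.00), SNAI2 (0.87), OPRK1 (0.80), DUSP1 (0.70), NPPC (0.69) and ATF3 (0.66).

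LFNG, a glycosyltransferase that modifies Notch, and PLPPR1 were called lower with R1881 in c42b (-0.59 and -0.61) and were near 0 in LNCaP (0.06 and -0.01), where both were below background. Only the brightest probe of each was called in c42b. The other probes, with means below background, showed -0.24 and -0.01 for LFNG and -0.05 for PLPPR1. NPPC was called higher in both lines, at 1.64 in c42b and 0.95 in LNCaP, but it was below background in LNCaP under both treatments (7.73 and 6.78) and in c42b with vehicle (7.02), which limits these values and their difference. The line difference of NPPC was not called without EV vehicle replicate 2 of c42b (0.63, adjusted p = 0.0661) or NT vehicle replicate 2 (0.65, 0.0610), nor that of PLPPR1 without EV vehicle replicate 1 (-0.57, 0.0558) or NT vehicle replicate 2 (-0.56, 0.0602). That of FKBP5 was -0.57 to -0.55 in the 4 cases where 1 library removed the call.

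Several of these differences lay mainly in EV cells, given here as NT and then EV values: FOS (0.04 and 3.41), EGR1 (0.09 and 2.44), ATF3 (-0.02 and 1.34), DUSP1, a MAP kinase phosphatase (0.30 and 1.10), and KLK2 (-0.17 and -1.28). In FOS, EGR1, DUSP1 and ATF3 the LNCaP empty-vector samples with vehicle stood above the other LNCaP samples. DUSP1 was at 10.84 and 11.28 against 9.36 to 9.83, and ATF3 at 10.09 and 10.30 against 9.59 to 9.83. ATF3 also rose by 0.86 in EV cells of c42b.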

How the results depend on the processing

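The androgen response had 241 to 267 called genes when a c42b control sample was left out (153 to 174 higher, 80 to 102 lower, against 311, 189 and 122), and the lowest count of lower genes was that without non-targeting vehicle replicate 1. With the replicate number as a block it was 261 (167 and 94). The numbers were not taken as pairs, since same-numbered samples deviated together by correlations of -0.10 to 0.23, of which those that involved R1881-treated non-targeting cells were negative and the others 0.19 to 0.23. The block removed the call of 8 named genes, among them DDC, OPRK1, ACACA, KLK15 and IRF1 (adjusted p 0.0506 to 0.105 over the 8). A crossed pairing in non-targeting cells, chosen after seeing the data, gave 266 genes. With only the 8 samples in the fit, which has fewer degrees of freedom, 198 genes were called, 68 of them lower. Restricting the test to probes above background gave 184 lower genes, 197 genes and 70 lower ones in non-targeting cells, and 126 line differences (58 and 68). Median centring gave 262 genes (180 higher, 82 lower) and 45 lower genes in empty-vector cells. The construct difference was called for 2 genes with brighter probes, with median centring and at a threshold of 0.1, and for 0 with the replicate block, with the crossed block and with the 8 samples (adjusted p of SGK1 0.0753, 0.102 and 0.492). Leaving out a sample gave 72 to 126 genes in non-targeting cells (60 to 91 higher, 12 to 36 lower), 123 to 184 in empty-vector cells (80 to 115, 41 to 69), 54 to 63 line differences (26 to 32 more positive, 28 to 33 more negative) and 0 to 2 construct differences. Of 89 named genes called in the androgen response, none reversed under 19 alternatives, 69 kept their call in all and 20 lost it in at least 1. Of 25 line differences 22 kept their call under 18 alternatives, and FKBP5, NPPC and PLPPR1 did not. Genes whose vehicle level lies below background, such as SGK1, have a difference limited by background signal.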
